A study of Bos taurus with 2 samples.

Results

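The cathelicidins and the S100 calgranulins are antimicrobial proteins of neutrophils. The 9 genes described here are *CATHL1*, *CATHL2*, *CATHL3*, *CATHL4*, *CATHL5*, *CATHL6*, *S100A8*, *S100A9* and *S100A12*, out of 19554 genes with a fold. Of this number, 10637 had a gene symbol. Each probe accession without a symbol was counted as a gene of its own, in all ranks and shares of genes given here. The 9 genes were found through the accession of each array probe, which matched 15 probes to the 9 symbols. The genes were chosen from families whose log2 LN/HN on these same arrays was already known, so the values between the pools are a description and no test was made of them. Total RNA came from the longissimus thoracis (LT) muscle of fetuses of Japanese Black cattle at 8.5 months of gestation (about day 260). The low-nutrition (LN) dams received 60% and the high-nutrition (HN) dams 120% of the nutritional requirement, from before pregnancy onwards. All dams were inseminated with male-sorted semen of the same sire, and all fetuses were bled at euthanasia. The LN array held the pooled RNA of the 4 lightest of 5 fetuses and the HN array that of the 4 heaviest of 6, so that diet and the choice of fetuses by body weight cannot be told apart. These group sizes are those of the methods of the study, whereas its table of carcass traits is headed with 5 HN and 6 LN fetuses. Each pool was measured on 1 array, so the spread between fetuses is not known and no p-value was possible.

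Cathelicidins are made by developing neutrophils of the bone marrow as inactive precursors and stored in granules. After release, a protease cuts off the C-terminal peptide, which kills bacteria by damaging their membranes or by acting inside them. The precursors share a conserved N-terminal part, whereas the peptides differ widely. Calgranulins are small calcium-binding proteins of the neutrophil cytosol, also found in monocytes and in inflamed epithelium, which withhold metal ions from microbes and act as alarm signals for other cells. Skeletal muscle fibres are not a known main source of either family, and RNA of whole muscle includes that of the vessels, blood and immune cells in it.

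All 15 probes were well above background on both arrays, and none carried an outlier flag. Their deposited signals lay between 43.6 and 1406, whereas the median signal of the negative controls was 1.24 in HN and 1.51 in LN. All 15 probes were higher in the LN pool, 14 of them by 25% or more (log2 LN/HN of at least 0.32) and 4 past 2-fold. Of all 30639 probes well above background on both arrays, 8.59% were at least 25% higher in the LN pool, and of the 14107 such probes within the signal range of the 15 probes, 5.32% were. By gene, 8 of 9 were at least 25% higher in the LN pool, against 8.85% of all genes, and 3 of 9 were past 2-fold, against 0.711%. The median log2 LN/HN of the 9 genes was 0.68, which is a 1.60-fold difference, and that of all genes was -0.0033. Since the genes were chosen with this contrast known, their counts are not a result to be read against those shares. More cells of a type and more RNA per cell cannot be told apart in these pools.

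**Figure D1:**
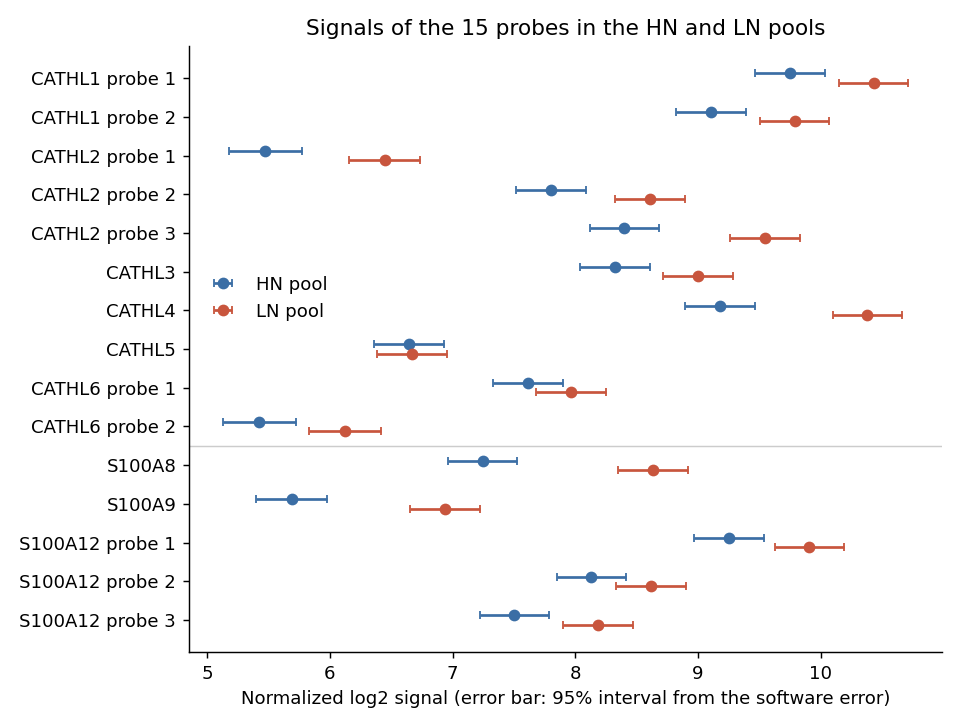
Normalized log2 signal (x axis) of each of the 15 probes (y axis) in the HN pool (blue) and the LN pool (red), 1 array each. Bars are 95% intervals from the error that the scanner software gives for each spot, and the point of the LN pool lies to the right of that of the HN pool for each probe, with the least difference in *CATHL5*.

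Among the cathelicidins, 5 of 6 were at least 25% higher in the LN pool and 1 of these was past 2-fold, the median log2 LN/HN being 0.68. *CATHL4*, which encodes the precursor of the tryptophan-rich peptide indolicidin, had a normalized log2 signal of 9.18 in HN and 10.38 in LN. Its deposited signals were 568.5 and 1359, in the same order. After normalization the LN pool was 2.30-fold higher (log2 LN/HN 1.20, 95% interval from the software error 0.80 to 1.60, 1 probe), which ranked *CATHL4* at position 65 of the 19554 genes. The probe of *CATHL4* had the widest difference of the 10 cathelicidin probes.

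*CATHL2* and *CATHL3* encode the precursors of the proline-rich bactenecins, which enter bacteria and act on their ribosomes. The probes of *CATHL2* had normalized log2 signals of 5.47, 7.80 and 8.40 in HN and of 6.45, 8.61 and 9.55 in LN, in the same order. Each of the 3 probes was higher in the LN pool, with log2 LN/HN values of 0.98, 0.81 and 1.15. Their mean of 0.98 was just short of a 2-fold difference (1.97-fold), at rank 155, and its brightest probe taken alone was past it. *CATHL3* had a normalized log2 signal of 8.32 in HN and 8.998 in LN from 1 probe, a log2 LN/HN of 0.68 (95% interval 0.28 to 1.08) and rank 451. The other bactenecin is the short cyclic peptide encoded by *CATHL1*. Its pair of probes had normalized log2 signals of 9.75 and 9.11 in HN and of 10.43 and 9.79 in LN. Although these probes differed in brightness, the log2 LN/HN was 0.68 in each, a 1.60-fold difference at rank 443.

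*CATHL5* and *CATHL6* encode the precursors of the bovine myeloid antimicrobial peptides, which form helices in membranes. *CATHL6* had normalized log2 signals of 7.62 and 5.43 in HN and of 7.96 and 6.12 in LN. Its probes were further apart than those of *CATHL1*, with log2 LN/HN values of 0.35 (95% interval -0.05 to 0.75) and 0.70 (0.28 to 1.11). The mean of 0.52 (1.44-fold) put *CATHL6* at rank 768, and it was 0.28, short of the 25% threshold, after an alternative background correction (normexp with an offset of 50, on the median pixel signal). *CATHL5* had a normalized log2 signal of 6.64 in HN and 6.67 in LN from 1 probe. Its log2 LN/HN of 0.03 (95% interval -0.38 to 0.43) was smaller than the error of a spot, at rank 8581, and 45.5% of the probes measured on both arrays had a value at least as high. The log2 LN/HN of *CATHL4* exceeded that of *CATHL5* by 1.18 (SE 0.29, from the software error of both probes).

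Among the calgranulins, 3 of 3 were at least 25% higher in the LN pool and 2 of these were past 2-fold, the median log2 LN/HN being 1.246. *S100A8* and *S100A9* encode the subunits of calprotectin, the complex that binds zinc and manganese. *S100A8* had a normalized log2 signal of 7.24 in HN and 8.63 in LN, from deposited signals of 151.1 and 402.5. The LN pool was 2.62-fold higher (log2 LN/HN 1.39, 95% interval 0.99 to 1.79, 1 probe), at rank 37. This was the highest value of the 9 genes, but it differed from that of *CATHL4* by less than the error (*CATHL4* minus *S100A8* -0.19, 95% interval -0.75 to 0.38), and *CATHL4* (1.13) was above *S100A8* (1.07) after the normexp background correction. *S100A9* had a normalized log2 signal of 5.69 in HN and 6.94 in LN, a 2.37-fold difference (log2 LN/HN 1.246, 95% interval 0.84 to 1.65, 1 probe) at rank 60. *S100A9* was not past 2-fold after the normexp background correction (log2 LN/HN 0.78). The log2 LN/HN values of the calprotectin subunits differed by 0.14 (95% interval -0.43 to 0.71).

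*S100A12* encodes a ligand of the receptor AGER. Its probes had normalized log2 signals of 9.25, 8.13 and 7.50 in HN and of 9.91, 8.62 and 8.18 in LN. The 3 probes gave log2 LN/HN values of 0.66, 0.49 and 0.68, with a mean of 0.61 (1.52-fold, SD between probes 0.11) at rank 572. The log2 LN/HN of *S100A8* exceeded that of *S100A12* by 0.78 (SE 0.24) and that of *S100A9* exceeded it by 0.64 (SE 0.24).

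**Figure D2:**
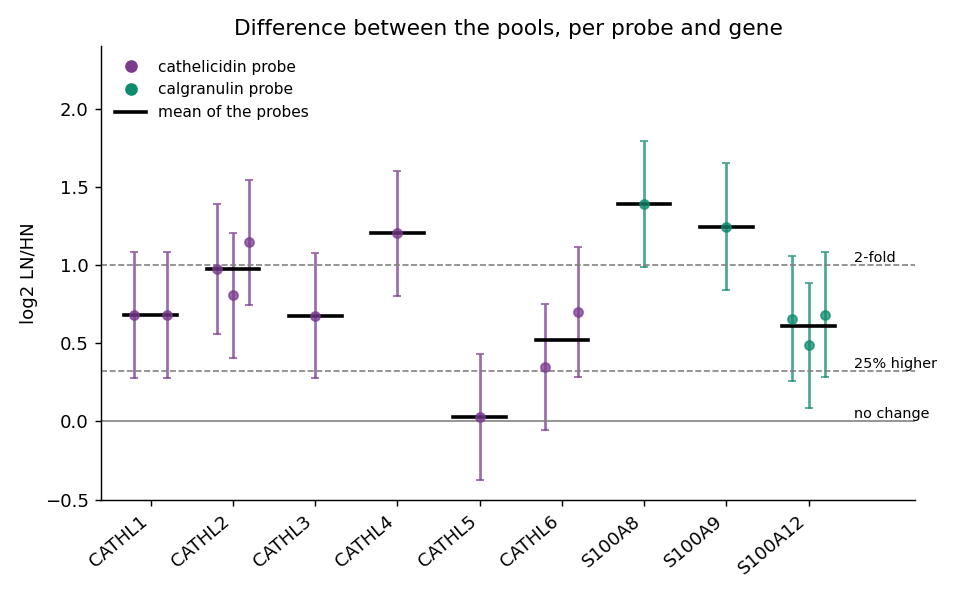
Log2 LN/HN (y axis) of the probes of each gene (x axis), with cathelicidins in purple and calgranulins in green. Bars are 95% intervals from the software error, black lines are the mean of the probes of a gene and dashed lines mark 25% higher and 2-fold higher. *CATHL4*, *S100A8* and *S100A9* lie above the 2-fold line, and *CATHL5* (0.03) lies near the line of no change.

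The error of the array measurement was judged in several ways. The software gave each of these spots an error of 10.001% to 10.54% of its signal, which is an SE of 0.20 to 0.21 for a log2 LN/HN. By this error, the 95% interval lay above 0 for 13 of the 15 probes, the exceptions being *CATHL5* and the brighter probe of *CATHL6*. It did so for 3.99% of all probes well above background on both arrays. Since the genes were chosen with this contrast known, the count is not a test and not a result to be read against that share. Repeated spots of the same probe, on 42 other probes, had an SD of 0.085 for a log2 LN/HN. The spots around each of the 15 probes, within 5 rows and columns, had a median log2 LN/HN between -0.05 and 0.09, so the surroundings of these spots were not high in the LN pool as a whole. In the log2 values that the authors normalized, all 15 probes were listed, and their log2 LN/HN ranged from 0.02 for *CATHL5* to 1.32 for *S100A8*. These errors do not include the variation between fetuses.

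**Figure D3:**
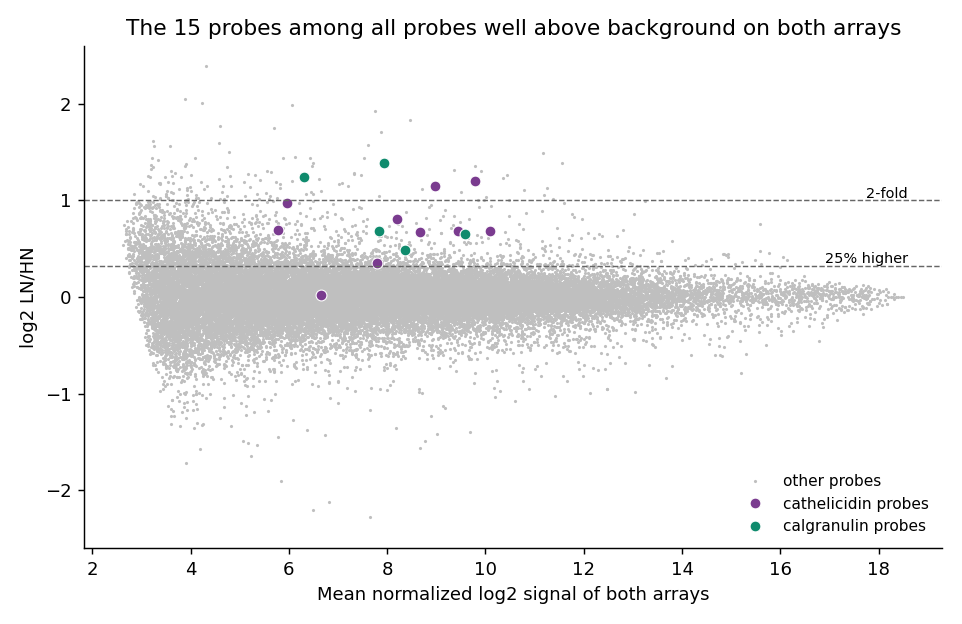
Log2 LN/HN (y axis) against the mean normalized log2 signal of both arrays (x axis) for the 30639 probes well above background on both arrays, with cathelicidin probes in purple, calgranulin probes in green and other probes in gray. Dashed lines mark 25% higher and 2-fold higher, and 14 of the 15 coloured probes lie above the lower line.

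The cathelicidin genes lie side by side on their chromosome, and so do the calgranulin genes. The order of the protein-coding genes was taken from assembly ARS-UCD2.0, which was not the assembly of the array design, so no coordinates are given. Along the cathelicidin cluster, the order is *CAMP* (also called *CATHL7*), *CATHL4*, *CATHL1*, *CATHL3*, *CATHL2*, *CATHL6* and *CATHL5*, with 3 unnamed genes between them that no probe matched. *CAMP* was 2.07-fold higher in the LN pool (normalized log2 signal 5.10 in HN and 6.14 in LN, log2 LN/HN 1.05, 1 probe), and its log2 LN/HN was 0.47 after the normexp background correction. Beyond the ends of the cluster, *NME6* had a log2 LN/HN of 0.05 and *DHX30* of -0.13. *CATHL6* and *CATHL5*, which had the lowest values of the cathelicidins, are next to each other at 1 end. In the calgranulin cluster, *S100A12* lies between *S100A8* and *S100A9* and had the lowest value in this cluster. The nearest gene with a value, *S100A7*, had a log2 LN/HN of -0.11, from a probe that was not well above background on the LN array.

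**Figure D4:**
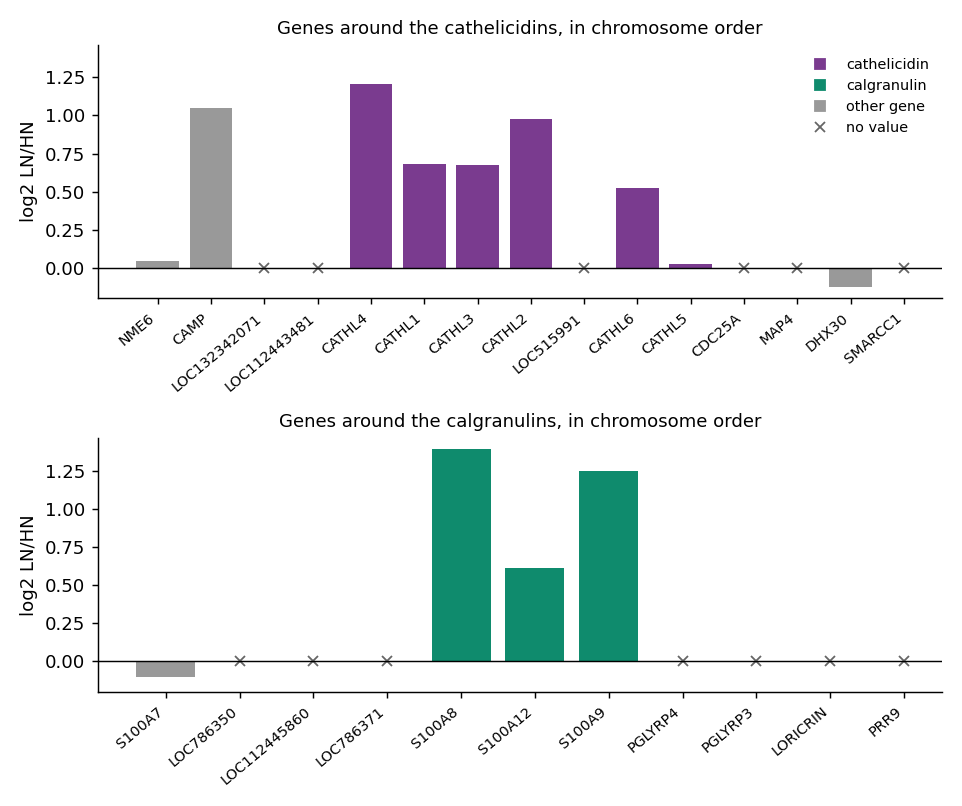
Log2 LN/HN (y axis) of the genes around the cathelicidins (upper panel, purple) and the calgranulins (lower panel, green), in chromosome order and not to scale, with other genes in gray and crosses for genes without a value. *CAMP* (1.05) stands with the cathelicidins, whereas *NME6* (0.05), *DHX30* (-0.13) and *S100A7* (-0.11) are near 0.

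The other S100 genes were compared as a list of 15, of which 12 had a value. Of these, 7 were higher and 5 lower in the LN pool, and the median log2 LN/HN was 0.05. Only *S100A14*, an epithelial S100 protein, was at least 25% higher (log2 LN/HN 0.33), and none was past 2-fold. *S100A4*, a protein of motile cells, had a log2 LN/HN of 0.26, and *S100A1*, the form of striated muscle, of 0.25. The lowest values were -0.22 for *S100A5* and -0.12 for *S100A16*. *S100A6* and *S100P* had no matched probe, and *S100Z* was not well above background.

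Of a list of 25 other antimicrobial proteins, 14 had a value. Of these, 9 were higher and 5 lower in the LN pool, with a median log2 LN/HN of 0.27, which was 0.088 after the normexp background correction. In this list, 7 genes were at least 25% higher and 1 was at least 20% lower (log2 LN/HN of -0.32 or below), against 8.85% and 9.11% of all genes. Proteins of neutrophil granules were among those higher. *PGLYRP1*, which binds the peptidoglycan of bacteria, was 2.05-fold higher (log2 LN/HN 1.04), with probes at 1.103 and 0.97, but 0.40 on the log2 scale under the normexp correction. *LTF*, the iron-binding lactoferrin, had normalized log2 signals of 6.98, 3.08 and 4.43 in HN and of 7.73, 3.86 and 5.17 in LN. Its log2 LN/HN was 0.76, and its 3 detected probes ranged from 0.74 to 0.79.

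The beta-defensins, another family of antimicrobial peptides, did not all differ in the same direction. *DEFB10* had a log2 LN/HN of 0.92 (1 probe) and *DEFB7* of 0.83 (probes 0.93 and 0.72). The 4 probes of *EBD*, an enteric beta-defensin, gave 0.75, 0.84, 0.77 and 0.00. After the normexp background correction, *DEFB10* was at 0.59, *DEFB7* at 0.52 and the mean of *EBD* at 0.50. In contrast, *DEFB4A* had a log2 LN/HN of -0.09 and *DEFB124* of -0.50. *HAMP*, which encodes the iron hormone hepcidin, had 0.48, and *LEAP2*, another liver peptide, had -0.30. *TAP* and *LAP*, defensins of epithelia, were not well above background on either array. *BPI*, which binds endotoxin (0.06), and *LYZ*, a lysozyme (-0.06), differed by less than the SD of repeated spots. Cathelicidins and beta-defensins are families of alike genes, and whether a probe also binds the transcript of another member was not tested.

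Of the 12 genes for receptors and their adaptors through which these proteins act on cells, 9 had a value and none passed the 25% threshold or its counterpart of 20% lower. Their median log2 LN/HN was -0.12, with 3 higher and 6 lower. *TLR4*, a receptor of calprotectin, averaged -0.17, its probes lying between -0.42 and 0.08, whereas *LY96*, its partner protein, had 0.31. *AGER*, the receptor of *S100A12*, had -0.14, *TLR2* had 0.00 and *CD14* had -0.05. *CD36* had a log2 LN/HN of -0.24, *BSG* of -0.27, *MYD88* of -0.12 (with dim probes) and *TICAM1* of 0.24. *FPR1* and *FPR2* had no matched probe, and *P2RX7* was not well above background.

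Among 13 regulators of myeloid cells and of these genes, 10 had a value, with 4 higher and 6 lower and a median log2 LN/HN of -0.04. *GFI1*, a transcription factor required for the maturation of neutrophils, was the only one at least 25% higher, and none was 20% lower. It was 2.25-fold higher in the LN pool (log2 LN/HN 1.17), but from a normalized log2 signal of 2.39 in the HN pool, close to the lowest signal called well above background on that array (2.27). Its log2 LN/HN was 0.083 after the normexp background correction. *CEBPE*, a factor for granule genes, was not well above background, and neither were the cytokine genes *IL6* and *TNF*. The other transcription factors were *SPI1* (-0.20), *CEBPA* (-0.04), *CEBPB* (-0.04), *CEBPD* (-0.09), *RUNX1* (0.25), *VDR* (-0.08) and *STAT3* (0.08). The cytokine genes *IL1B* and *CSF3* had log2 LN/HN values of -0.21 and 0.10.

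**Figure D5:**
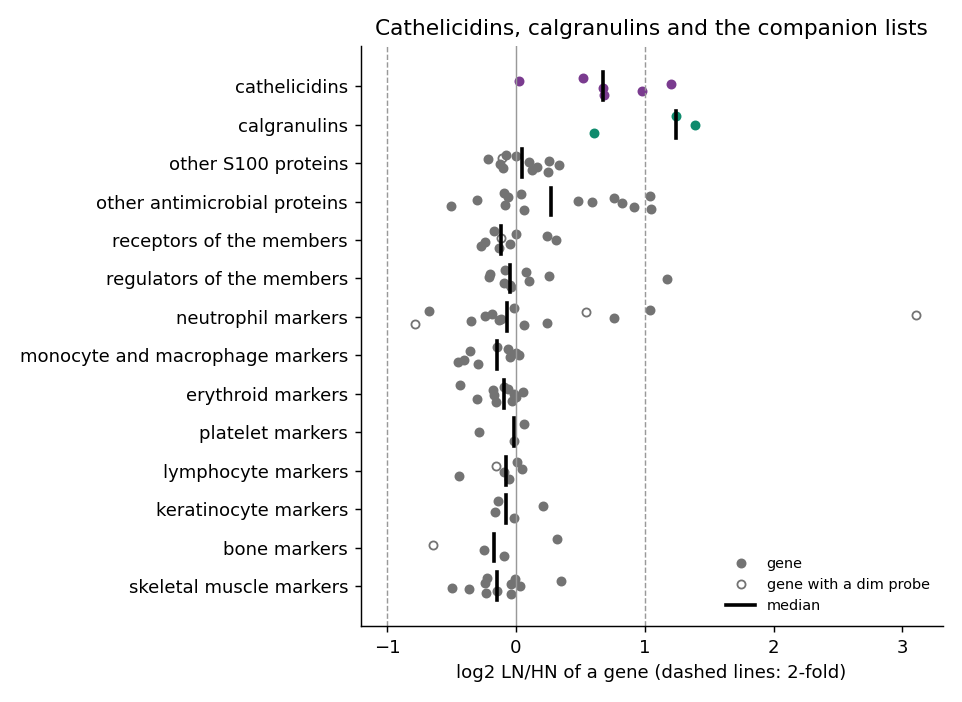
Log2 LN/HN (x axis) of each gene with a value, by list (y axis). Open circles are genes with a probe dim on 1 array, black lines are medians and dashed lines mark 2-fold, with cathelicidins in purple and calgranulins in green, at medians of 0.68 and 1.246, and the medians of the other lists between -0.17 and 0.27.

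Markers of cell types were set beside these values. Of 26 neutrophil markers, 14 had a value, 6 being higher and 8 lower in the LN pool, at a median log2 LN/HN of -0.07. This list shares *LTF*, *BPI*, *PGLYRP1* and *LCN2*, which had no matched probe, with the antimicrobial proteins. Over the 14 markers, the signals summed to 4111 (HN) and 4158 (LN). At least 25% higher were 4 markers, and at least 20% lower were 3, against 8.85% and 9.11% of all genes. Past 2-fold were *PGLYRP1* and *MPO*, against 0.711% of all genes, and none was past 2-fold lower, against 0.286%. *MPO*, the myeloperoxidase of granules made early in neutrophil development, was not well above background in the HN pool and had a normalized log2 signal of 5.48 in the LN pool. The LN pool was 8.62-fold higher (log2 LN/HN 3.11, 1 probe). This fold rests on a normalized log2 signal of 2.37 in the HN pool that was not well above background, and it is not a lower limit. The log2 LN/HN of *MPO* was 0.72 after the normexp background correction.

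The other neutrophil markers differed in both directions. *ELANE*, the neutrophil elastase, had a log2 LN/HN of -0.13 (1 probe). Genes of the NADPH oxidase, which makes superoxide in mature phagocytes, gave -0.67 for *NCF4*, -0.35 for *CYBB*, -0.19 for *NCF1* and 0.24 for *CYBA*. *CXCR2*, the chemokine receptor of circulating neutrophils, had a log2 LN/HN of -0.79, at least 1.72-fold lower, since its probe was not well above background in the LN pool. After the normexp background correction, *CXCR2* was at -0.14 and *NCF4* at -0.316, and neither was at least 20% lower. *MMP9* had -0.24 and the integrin gene *ITGB2* -0.12. *CD177*, *CXCR1* and *ITGAM* were not well above background on either array, and 9 markers had no matched probe. These 9 may still be measured by probes whose accessions were not resolved to a symbol, so the list is incomplete. Among them is the granule gene *OLFM4*, which the study names among the genes most raised in LN on these arrays. The quantitative PCR of the study found no significant difference in *OLFM4* between the diet groups. No value of *OLFM4* is given here, so the counts and the median of the list leave it out. The part of the number or stage of neutrophils in the values of the cathelicidins and calgranulins was not tested.

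Of 12 markers of monocytes and macrophages, which can also make calgranulins, 9 were measured and the LN pool was lower in 8. Their median log2 LN/HN was -0.15, with summed signals of 7369 (HN) and 5870.1 (LN). The complement genes *C1QB* (-0.45) and *C1QC* (-0.40) and the lysosomal gene *CD68* (-0.35) were at least 20% lower, whereas *CD163* had 0.02. Of 22 erythroid markers, which show blood in the tissue, 11 were measured and the LN pool was lower in 9, with a median of -0.10 and summed signals of 43572 (HN) and 39394 (LN). The fetal globin gene *HBG* had a log2 LN/HN of -0.18 and *HBA* of 0.00.

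Keratinocytes make calgranulins as well. Of 11 markers of these cells, 4 had a value, with a median of -0.08 and a highest value of 0.21 for *KRT14*. *KRT5*, *KRT10* and *TP63* were among the 6 that were not well above background. The medians were -0.02 for 3 platelet markers, -0.07 for 6 lymphocyte markers and -0.17 for 4 bone markers, and no eosinophil marker had a value. Of these, *CD2* (-0.44) and *MEPE* (-0.64, with a dim probe) were at least 20% lower and none was 25% higher. As for the labelled tissue, all 11 skeletal muscle markers with a matched probe were measured. The skeletal actin gene *ACTA1* had a normalized log2 signal of 17.57 in HN and 17.53 in LN. The median log2 LN/HN of the muscle markers was -0.15, from -0.50 for *MYH1*, a fast myosin, to 0.35 for *MYH8*, a myosin of developing muscle.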

How the data were processed

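Pooled RNA of 4 LT muscles per group was labelled with Cy3 and hybridized to 1 Agilent Bovine (v2) array per pool. The authors deposited the spot intensities of Feature Extraction 11.0.1.1, which are background-subtracted and detrended but not normalized between arrays, with flags and an error per spot. They also deposited a log2 table, quantile-normalized in GeneSpring GX. Here, the 43803 non-control spots were quantile-normalized after log2 transformation (limma 3.58.1, R 4.3.3), which is the method named by the study. After removal of 13 spots flagged as outliers, repeated spots were averaged. Log2 signals were not compared between probes. Python 3.11.15, numpy 2.4.6 and pandas 2.3.3 were used, with matplotlib 3.10.9 for figures.

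The 32776 probes well above background on either array were kept. A probe dim on the other array was given there the lowest signal called well above background (log2 2.27 on HN, 2.82 on LN), so that its fold is a limit. If its own signal there was higher, that signal was kept, and the fold is then not a limit. Genes were given the average log2 LN/HN of their probes. Intervals are the value ± 1.96 SE, from the software's error of both spots, which was taken as independent between spots. The SE of a difference between genes adds their errors in quadrature. They cover the array measurement only, and the number of arrays limits the precision. Of the spots, 74.5% (HN) and 70.9% (LN) were well above background, and no spot was saturated.

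Symbols were looked up by probe accession in a RefSeq table of ARS-UCD2.0. The scanner files name UMD_3.1 as the build of the array design. The members and lists were chosen with earlier results of these data known. The lists (other S100 proteins, other antimicrobial proteins, receptors, regulators and markers of 9 cell types) were written by hand. Named were all 9 members, every receptor and regulator, every gene of a list past 2-fold and the highest and lowest of each list. Further genes of the lists were named after their values had been seen. The steps were tested on simulated data.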

Additional observations from a re-analysis of the deposited data

How the results depend on the processing

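Across 12 alternatives (4 other normalizations or background corrections, the values normalized by the authors, 4 treatments of dim probes, 2 ways of joining probes and outlier spots kept), the median log2 LN/HN of the 9 genes lay between 0.64 and 0.73. Between 7 and 8 genes were at least 25% higher in the LN pool, and between 2 and 4 past 2-fold. None of the 8 genes past the 25% threshold changed direction. *CATHL5*, which was near 0, was at -0.0095 with arrays scaled on their 75th percentile, which put the median of all genes at -0.042. The normexp correction (offset 50) used the median pixel signal, since the scanner files hold no mean signal column, a choice made after seeing the data. Under it, *S100A9* had a log2 LN/HN of 0.78 and *CATHL6* of 0.28, and the share of all genes at least 25% higher was 1.62%. This alternative changed both the signal column and the background correction, and the cause was not tested. Of the companions, *PGLYRP1* was at 0.40, *CAMP* at 0.47, *LTF* at 0.33, *NCF4* at -0.32 and *CXCR2* at -0.14. The median of the neutrophil markers ranged from -0.16 to 0.09, and those of the platelet and keratinocyte markers also crossed 0. The median of the other antimicrobial proteins ranged from 0.09 to 0.34, and that of the bone markers from -0.23 to -0.03. With 1 array per pool, no array could be left out and no replicate analysis was possible.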
